A study of Mus musculus with 10 samples.

Results

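Epithelial keratin and adhesion genes were followed in the RNA of mouse mammary fat pads. The 10 genes comprise the luminal keratin genes Krt8, Krt18, Krt19 and Krt7, the basal genes Krt5, Krt14, Krt17 and Trp63, and the adhesion genes Epcam and Cdh1. They were taken by symbol, 10 of the 30319 genes with a symbol, and all 10 passed the filter on low values that left 16932 genes for testing. The study compared female FVB mice lacking fibroblast activation protein (FAP, genotype FAP-/-) with wild-type mice on ingredient-matched diets, eaten between 12 and 30 weeks of age. The high-fat diet held 60% of its calories as fat and the low-fat diet 10%. The 4 groups were null mice on the high-fat diet (Null_HFD, n = 3), wild-type mice on the high-fat diet (WT_HFD, n = 2), null mice on the low-fat diet (Null_LFD, n = 3) and wild-type mice on the low-fat diet (WT_LFD, n = 2). Total RNA of whole inguinal fat pads, the subcutaneous mammary fat of the mouse, was depleted of ribosomal RNA and sequenced. Values are TPM, a relative transcript level scaled for transcript length, and differences are on the log2(TPM + 1) scale.

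Keratins build the intermediate filaments of epithelial cells, each filament pairing a type I with a type II keratin. In the mammary gland the ducts have an inner luminal layer, marked by the pair Krt8 and Krt18 with Krt19 and Krt7, and an outer basal or myoepithelial layer, marked by Krt5 and Krt14 with Krt17. The transcription factor p63, encoded by Trp63, maintains basal cells. Cdh1 encodes E-cadherin, the adhesion protein of epithelial junctions, and Epcam encodes a further epithelial adhesion molecule. The fat pad surrounds the ducts, so whole-pad RNA holds epithelial transcripts beside those of fat.

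In GENCODE M21 (GRCm38) all 10 genes are protein coding. The 3 type II keratin genes lie on chromosome 15, Krt7 on the plus strand at 101411043 to 101430313, Krt5 on the minus strand at 101707070 to 101712898 and Krt8 on the minus strand at 101996698 to 102004482. Krt18, a type I gene on the plus strand at 102028180 to 102032027, is the fourth gene on chromosome 15, and its start is 23.7 kb from that of Krt8 on the opposite strand. The other type I genes are on the minus strand of chromosome 11, Krt19 at 100140810 to 100148665, Krt14 at 100203162 to 100207548 and Krt17 at 100256217 to 100261029. Trp63 is on the plus strand of chromosome 16 at 25683763 to 25892102, Epcam on that of chromosome 17 at 87635979 to 87651129 and Cdh1 on that of chromosome 8 at 106603351 to 106670246.

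The RefSeq promoter table (GRCm38.p6, 250 bases before to 50 after a gene's start) matched 6 of the 10 genes. Shown are the luminal pair Krt8 and Krt18, the basal Krt5 and the adhesion gene Epcam, 1 or more of each role, so that the regulatory letters of genes with parallel levels can be compared. They are the C57BL/6J reference, not the FVB genome of these mice, read 5′ to 3′ on each gene's strand. Capitals mark the E2 box CAGGTG, which reads CACCTG on the other strand and is the letter string bound by the epithelial repressors of the Snail and Zeb families. The windows are chr15:102004293-102004592 (minus strand) for Krt8, chr15:102027966-102028265 (plus strand) for Krt18, chr15:101712856-101713155 (minus strand) for Krt5 and chr17:87635729-87636028 (plus strand) for Epcam.
Krt8: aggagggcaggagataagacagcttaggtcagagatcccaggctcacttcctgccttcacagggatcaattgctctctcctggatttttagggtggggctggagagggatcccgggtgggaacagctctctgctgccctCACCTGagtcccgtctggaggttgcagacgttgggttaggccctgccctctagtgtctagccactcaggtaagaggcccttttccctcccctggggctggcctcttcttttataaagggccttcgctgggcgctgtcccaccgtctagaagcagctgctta
Krt18: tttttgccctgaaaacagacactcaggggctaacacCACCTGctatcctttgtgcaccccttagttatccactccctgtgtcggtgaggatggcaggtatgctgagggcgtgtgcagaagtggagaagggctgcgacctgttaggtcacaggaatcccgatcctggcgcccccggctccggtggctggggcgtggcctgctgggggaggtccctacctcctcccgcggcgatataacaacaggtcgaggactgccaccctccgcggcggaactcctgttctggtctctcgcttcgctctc
Krt5: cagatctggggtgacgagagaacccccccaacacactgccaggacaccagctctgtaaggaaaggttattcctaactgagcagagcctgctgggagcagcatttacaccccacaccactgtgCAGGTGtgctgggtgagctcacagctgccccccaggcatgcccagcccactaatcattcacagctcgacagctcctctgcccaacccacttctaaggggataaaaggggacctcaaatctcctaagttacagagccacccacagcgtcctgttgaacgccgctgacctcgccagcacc
Epcam: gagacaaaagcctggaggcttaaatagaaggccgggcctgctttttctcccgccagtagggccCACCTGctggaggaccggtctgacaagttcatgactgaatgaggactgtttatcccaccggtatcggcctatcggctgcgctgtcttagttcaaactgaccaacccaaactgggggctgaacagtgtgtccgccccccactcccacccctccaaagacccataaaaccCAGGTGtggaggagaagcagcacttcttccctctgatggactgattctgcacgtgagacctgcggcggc

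Searched on both strands, CAGGTG was present in 5 of the 6 matched promoters, against 20.2% of the 32851 promoters of that length in the table. It began at -111 bases from the start in Krt8, -214 in Krt18 and -128 in Krt5, and Epcam held 2 copies, at -187 and -19. Krt7 held 1 at -44 and Krt14 none, but the RefSeq starts of these genes lie 1360 and 1518 bases inside the GENCODE genes, so their windows were not printed. The RefSeq start of Krt8 is 140 bases downstream of its GENCODE start, so the E2 box of Krt8 lies inside the GENCODE gene. The string TATAAA was present in Krt8 alone, as overlapping matches on the 2 strands, against 13.6% of all promoters. GGGCGG was in 2 of 6 (35.7% of all promoters), CANNTG, which includes the E2 box, in 6 of 6 (72.3%), and CCAAT (37.4%), the AP-1 letters TGANTCA (7.81%) and the grainyhead letters AACNGGTT (2.09%) in none. These letter matches describe the windows, and their relation to the levels was not tested.

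Sequence shared between keratin genes limits how exactly reads can be assigned. Of the distinct 31-base words in a gene's GENCODE transcripts, 32.3% of those of Krt8 were also present in transcripts of another gene, 32.2% in the pseudogene Krt8-ps alone. For Krt14 the share was 28.2%, of which Krt16 held 17.6% and Krt17 10.5%, and Krt16 was listed at 0 in all 10 libraries. It was 15.8% for Krt17, 12.8% for Krt5 (9.46% in Krt6a), 11.4% for Krt18 and 2.11% for Krt7, and at most 0.439% for Krt19, Trp63, Epcam and Cdh1. Which transcripts the authors counted against is not given in the sources used here, so the levels of Krt8, Krt14, Krt17, Krt5 and Krt18 carry an uncertainty that replicates do not show.

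The libraries summed to 946103 to 954463 TPM and held 14574 to 15700 genes at 1 TPM or more. Fap itself measured 26.7, 38.4 and 22.3 TPM in Null_HFD and 68.8 and 37.7 TPM in WT_HFD, and 18.4, 22.4 and 18.3 TPM in Null_LFD and 45.4 and 39.2 TPM in WT_LFD. The genotypes overlapped on the high-fat diet, and which part of the gene is missing in null mice is not given in the sources used here. Of the libraries, 2 stood apart: 12 lymph node genes summed to 2624 TPM in Null_HFD 3 and 988 TPM in WT_HFD 2, against 17.2 to 37.5 TPM in the other 8. Null_HFD 3 was also the lowest for 11 adipocyte genes, 12857 TPM, against 17707 to 37780 TPM in the other 8 libraries and 28273 TPM in WT_HFD 2. Null_HFD 3 and WT_HFD 2 also held the least skeletal muscle RNA, 102 and 211 TPM over 10 genes, against 1837 to 8792 TPM. Differences of the 10 genes in the high-fat groups are therefore given with them and, for all or part of the genes, also without them. Those of the other gene lists are given with them included.

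The 7 keratin genes chosen were the 7 most abundant of the 51 keratin genes with a value, and together held 92.0% to 98.1% of all keratin TPM in a library. By mean over the 10 libraries, Krt18 was at 213 TPM, Krt19 at 184 TPM and Krt8 at 129 TPM, with Krt14 at 28.2 TPM, Krt7 at 23.8 TPM, Krt5 at 21.0 TPM and Krt17 at 12.5 TPM. The next, the basal keratin gene Krt15, averaged 8.13 TPM and ranged over 0 to 48.6 TPM. Skin was a possible further source of keratin RNA. Of 16 epidermis and hair follicle genes, Flg and Lce1a1 were listed at 0 in every library, 6 others (Krt1, Krt2, Krt77, Lor, Flg2 and Ivl) did not pass the filter and 8 were tested. The 16 summed to 17.1 to 50.8 TPM in Null_HFD, 27.6 to 46.6 TPM in WT_HFD, 39.9 to 77.3 TPM in Null_LFD and 21.3 to 40.2 TPM in WT_LFD, reaching highest in Null_LFD as the keratins did, and their part in the keratin levels was not tested. Of the mesothelium, 9 genes, with Upk3b listed at 0 throughout and Msln, Upk1b, Bnc1 and Muc16 below the filter, summed to 8.36 to 23.7 TPM in Null_HFD, 7.44 to 32.1 TPM in WT_HFD, 16.3 to 33.5 TPM in Null_LFD and 11.4 to 14.7 TPM in WT_LFD.

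Krt8, the type II filament partner of Krt18 in luminal cells, measured 94.1, 109 and 35.5 TPM in Null_HFD pads, 103 and 109.6 TPM in WT_HFD pads, 117, 292 and 240.0 TPM in Null_LFD pads and 130 and 61.7 TPM in WT_LFD pads. All Null_LFD libraries lay above all high-fat libraries, and the genotypes overlapped within each diet. Krt18 measured 137, 165 and 59.8 TPM in Null_HFD, 251 and 228 TPM in WT_HFD, 188, 470 and 283 TPM in Null_LFD and 236 and 118 TPM in WT_LFD. Each null library on the high-fat diet was below each wild-type library on it, which was not so for its partner Krt8. Krt19, a small type I keratin of luminal cells and simple epithelia, ranged over 37.0 to 162 TPM in Null_HFD, 188 to 191 TPM in WT_HFD, 157 to 321 TPM in Null_LFD and 152 to 255 TPM in WT_LFD. Krt7, a type II keratin of ductal luminal cells, ranged over 9.33 to 25.0 TPM, 22.4 to 26.4 TPM, 21.4 to 35.9 TPM and 15.5 to 30.6 TPM in the same groups. It varied least of the 10 genes between libraries, its highest value being 3.85 times its lowest.

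Krt5, the type II keratin of basal cells, measured 11.9, 31.2 and 6.87 TPM in Null_HFD, 17.8 and 19.7 TPM in WT_HFD, 19.5, 32.0 and 42.3 TPM in Null_LFD and 20.5 and 7.88 TPM in WT_LFD. Every pair of neighbouring groups overlapped. Krt14, its type I partner, measured 21.3, 32.9 and 7.60 TPM in Null_HFD, 21.3 and 29.3 TPM in WT_HFD, 28.6, 46.9 and 51.5 TPM in Null_LFD and 29.8 and 12.8 TPM in WT_LFD, again with overlap between neighbours. Trp63 measured 10.7, 6.52 and 1.90 TPM in Null_HFD, 10.85 and 10.98 TPM in WT_HFD, 16.5, 21.5 and 23.2 TPM in Null_LFD and 8.85 and 5.15 TPM in WT_LFD. Its null libraries were all above wild type on the low-fat diet and all below it on the high-fat diet, though Null_HFD 1 was close to both WT_HFD libraries. Krt17, a basal and stress-inducible type I keratin, measured 10.3, 20.2 and 2.44 TPM in Null_HFD, 3.99 and 9.16 TPM in WT_HFD, 10.9, 11.3 and 35.3 TPM in Null_LFD and 16.2 and 5.48 TPM in WT_LFD. It spread most of the 10 genes, 14.5 times between its lowest and highest library, and its neighbouring groups by mean overlapped.

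Epcam measured 63.3, 75.9 and 22.6 TPM in Null_HFD, 104 and 112 TPM in WT_HFD, 106, 174 and 175 TPM in Null_LFD and 103 and 44.5 TPM in WT_LFD. As with Trp63, null libraries were all above wild type on the low-fat diet and all below it on the high-fat diet. Cdh1 measured 15.4, 23.2 and 8.35 TPM in Null_HFD, 29.0 and 34.0 TPM in WT_HFD, 28.0, 50.6 and 48.9 TPM in Null_LFD and 33.7 and 13.8 TPM in WT_LFD. Its genotypes separated on the high-fat diet and overlapped on the low-fat diet.

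By group mean, Null_LFD was highest for all 10 genes, WT_HFD came next for 8 and Null_HFD was lowest for 8. The exceptions were Krt19, with WT_LFD in the second place, Krt5, with WT_LFD lowest, and Krt17, with Null_HFD in the second place and WT_HFD lowest. Most of this order was within the spread of the libraries, since 5 of the 30 neighbouring pairs of groups did not overlap. These were the 2 highest groups for Krt8 and Trp63, the next step for Trp63 and Epcam, and the 2 lowest for Krt19. The shares of all genes with this order or with such steps were not computed, so these counts have no background beside them. Null_HFD 3, the library richest in lymph node RNA, was the lowest library for all 10 genes. Null_LFD 2 was the highest for 4 of them (Krt8, Krt18, Krt7 and Cdh1) and Null_LFD 3 for the other 6. In whole-pad RNA, fewer epithelial cells and less RNA per epithelial cell cannot be told apart.

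**Figure D1:**
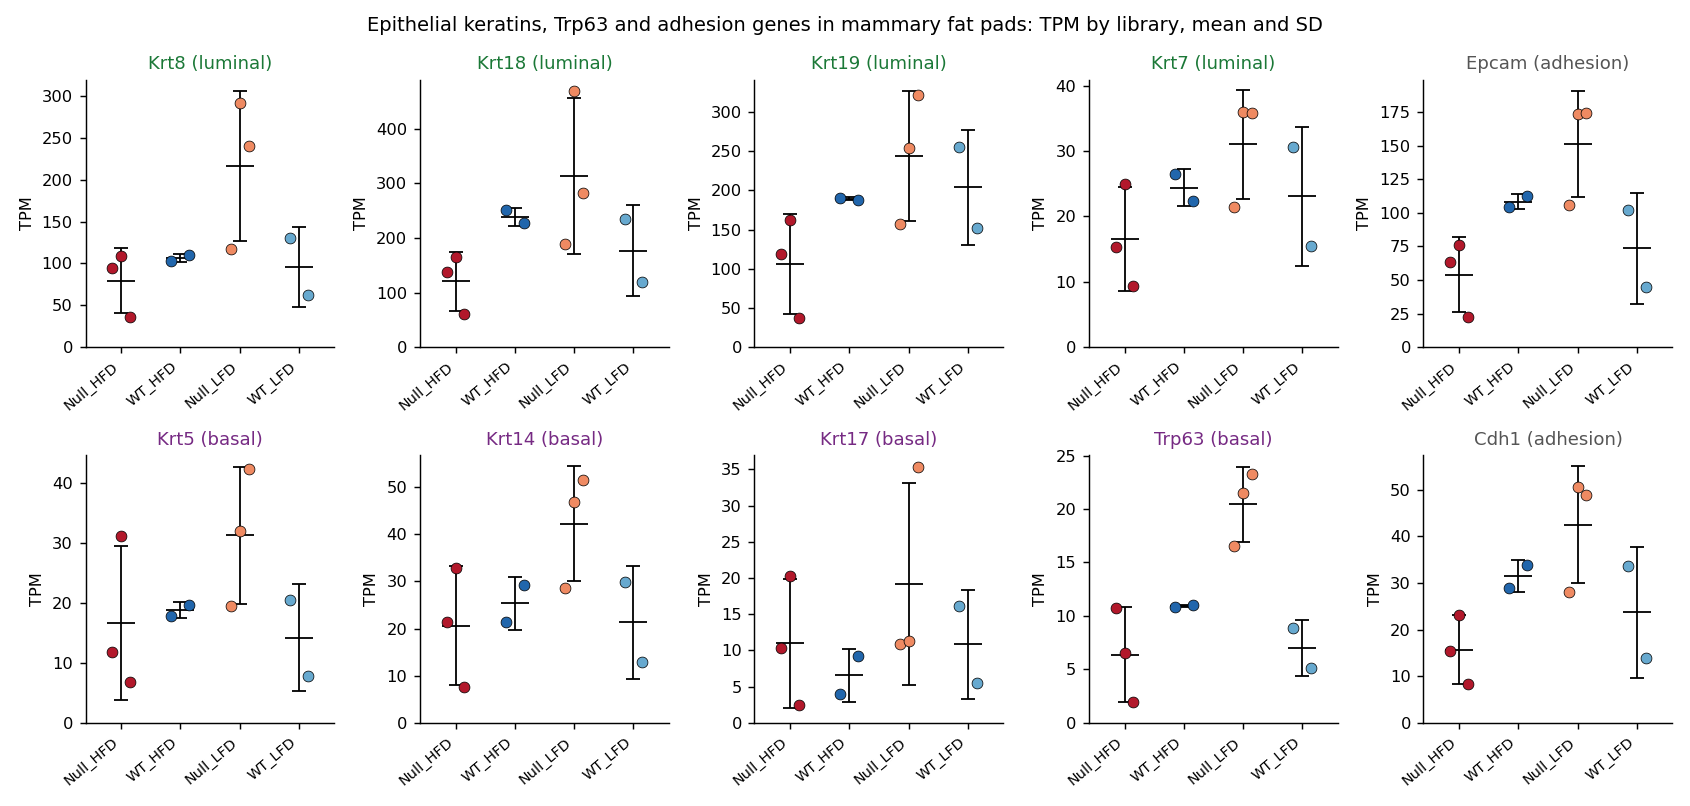
TPM of the 10 epithelial genes (linear axis from 0) by group, with a point for each library, a horizontal line at the group mean and error bars of 1 SD (n = 3 in null and n = 2 in wild-type groups). Null_LFD has the highest mean in all 10 panels, and the lowest point of each panel is a Null_HFD library.

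Of the 4 comparisons between 2 groups, the 10 genes stood farthest from no difference for diet in null mice. All 10 were lower on the high-fat diet, with limma's log2 differences of -1.74 for Trp63, -1.61 for Epcam, -1.48 for Krt8, -1.44 for Cdh1, -1.40 for Krt18 and -1.37 for Krt19, and of -1.17 for Krt14, -1.06 for Krt5, -0.93 for Krt7 and -0.89 for Krt17. None passed the test after adjustment over all 16932 genes (adjusted p 0.699 to 0.818), where 1 gene, or 0.00591%, was called. At an unadjusted p under 0.05, 8 of the 10 were lower, against 3.11% of all genes tested. The exceptions were Krt5 and Krt17. For Trp63 the 95% interval was -2.78 to -0.71 (SE 0.46), and for Epcam -2.65 to -0.56 (SE 0.46). The Null_HFD and Null_LFD libraries did not overlap for Krt8, Krt18, Trp63, Epcam and Cdh1, 5 of 10, against 4.49% of all genes lower without overlap. The median over the 10 genes was -1.38, against 0.04 over all genes tested, with 10 of 10 below 0. Because the 10 genes varied together over the libraries, these counts are not those of independent genes.

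Beside this difference, several lists of tissue genes differed between the same groups. The skeletal muscle genes were lower in Null_HFD than in Null_LFD for 10 of 10 genes (median -2.35) and the lymph node genes higher for 12 of 12 (median 1.92). Both sums stood apart in Null_HFD 3, at 102 TPM for muscle and 2624 TPM for lymph node. In Null_HFD 1 and Null_HFD 2 the muscle genes summed to 2600 and 4685 TPM, against 2987 to 8792 TPM in Null_LFD. Their lymph node genes summed to 32.6 and 37.5 TPM, against 17.2 to 27.3 TPM in Null_LFD. The 8 epidermis and hair follicle genes tested were lower for 8 of 8 (median -0.78). The mature adipocyte genes were higher for 9 of 11 (median 0.40), and Lep, encoding the fat hormone leptin, was at 990 to 1492 TPM in Null_HFD, against 133 to 346 TPM in Null_LFD (difference 2.26, SE 0.48, limma adjusted p 0.699). None of these passed the test, and their part in the result was not tested. Without Null_HFD 3 and WT_HFD 2, the 10 epithelial genes were lower in null mice on the high-fat diet in 10 of 10 cases, by smaller amounts for all 10. The differences were -1.18 for Trp63, -1.08 each for Epcam and Cdh1, -0.99 for Krt8, -0.96 for Krt18 and -0.75 for Krt19. They were -0.61 for Krt14, -0.60 each for Krt7 and Krt5 and -0.17 for Krt17. Over all the alternatives run, the difference of Trp63 lay between -2.18 and -1.18, that of Epcam between -1.93 and -1.08 and that of Krt8 between -1.87 and -0.99.

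In wild-type mice the same diet comparison gave differences above 0 for 8 of the 10 genes. It was 0.67 for Epcam, 0.61 for Trp63, 0.52 for Cdh1, 0.51 each for Krt18 and Krt5, 0.34 for Krt14, 0.25 for Krt8 and 0.15 for Krt7, with Krt19 at -0.06 and Krt17 at -0.57 below 0. None passed the test by limma (adjusted p 0.767 to 0.989), as for all genes tested (0% called). At an unadjusted p under 0.05, 0 of the 10 were higher or lower, against 4.24% of all genes higher (718) and 1.37% lower (232). The diets did not overlap for Trp63 and Epcam, 2 of 10, which is below the 33.7% of all genes that were higher without overlap, with 2 libraries against 2. The median over the 10 genes was 0.42, against 0.20 over all genes. The lymph node genes were higher for 12 of 12 (median 2.52) and the muscle genes lower for 10 of 10 (median -1.61), none passing the test. Their sums stood apart in WT_HFD 2 alone, at 988 and 211 TPM. In WT_HFD 1 the lymph node genes summed to 27.8 TPM, against 23.3 and 29.2 TPM in WT_LFD. The muscle genes summed to 2567 TPM there, against 2612 and 1837 TPM in WT_LFD. Their part in these values was not tested. Without Null_HFD 3 and WT_HFD 2, which leaves 1 wild-type library on the high-fat diet, the values were 0.62 for Epcam, 0.61 for Trp63, 0.58 for Krt18, 0.44 for Krt5, 0.41 for Cdh1, 0.27 for Krt7, 0.21 for Krt8, 0.11 for Krt14, -0.05 for Krt19 and -1.08 for Krt17. The value of Krt7 was -0.05 when the libraries were rescaled by medians of ratios, and the direction of 5 genes turned on WT_LFD 2: without it, Krt8 stood at -0.28, Krt7 at -0.32, Krt5 at -0.12, Krt14 at -0.24 and Cdh1 at -0.10.

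Genotype was compared within each diet. On the high-fat diet 9 of the 10 genes were lower in null than in wild-type pads, with log2 differences of -1.16 for Epcam (SE 0.52), -1.10 for Krt18, -1.07 for Krt19, -1.06 for Cdh1, -0.91 for Trp63, -0.63 for Krt7, -0.57 for Krt8, -0.48 for Krt14 and -0.41 for Krt5, and Krt17 at 0.40. None passed the test (limma, adjusted p 1 for all), with 0.0118% of all genes called. At an unadjusted p under 0.05, Cdh1 was lower, 1 of 10, against 1.94% of all genes. Krt18, Krt19, Trp63, Epcam and Cdh1 had no overlap between the genotypes, 5 of 10, against 7.78% of all genes lower without overlap. The median was -0.77, against 0.02 over all genes. Fibroblast genes were lower for 6 of 6 (median -0.25), epidermis and hair follicle genes for 6 of 8 (median -0.27) and lymph node genes for 9 of 12 (median -0.24). Skeletal muscle genes were higher for 8 of 10 (median 0.59) and contractile genes of myoepithelium for 5 of 7 (median 0.23). Of all genes tested, 52.1% were higher. None of these lists held a gene that passed the test, and their part in the result was not tested. Without Null_HFD 3 and WT_HFD 2, 1 wild-type library is left. The values were then -0.73 for Krt18, -0.58 for Epcam, -0.59 for Cdh1, -0.45 for Krt19, -0.34 for Trp63 and -0.03 for Krt8. Those of Krt5 and Krt14 were 0.12 and 0.30, above 0, and that of Krt17 rose from 0.40 to 1.64. Krt7 lay between -0.97 and -0.30 over all the alternatives run.

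On the low-fat diet all 10 genes were higher in null than in wild-type pads, by 1.45 for Trp63 (SE 0.51), 1.16 each for Krt8 and Krt5, 1.12 for Epcam, 1.03 for Krt14, 0.89 for Cdh1, 0.80 for Krt18, 0.73 for Krt17, 0.45 for Krt7 and 0.25 for Krt19. None passed the test (limma, adjusted p 0.949 to 0.979), and 0% of all genes did, with 615 higher and 135 lower at an unadjusted p under 0.05. Trp63 was the 1 of 10 with an unadjusted p under 0.05, against 3.63% of all genes in that direction. Trp63 and Epcam, 2 of 10, had no overlap between the genotypes, against 19.1% of all genes higher without overlap. The median was 0.96, against 0.15 over all genes. Skeletal muscle genes were also higher in Null_LFD than in WT_LFD, for 10 of 10 (median 1.35), and epidermis and hair follicle genes for 8 of 8 (median 0.96), while mature adipocyte genes were lower for 8 of 11 (median -0.42). None of these passed the test, and their part in the result was not tested. WT_LFD 2 was the lower of the 2 wild-type libraries for all 10 genes, and without it the values were lower for all 10. They were 1.11 for Trp63, 0.63 for Krt8, 0.52 each for Krt5 and Epcam, 0.45 for Krt14, 0.31 for Krt18, 0.28 for Cdh1 and 0.02 for Krt17, with Krt7 and Krt19 below 0 at -0.02 and -0.13.

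The question whether the genotype difference depended on diet was put to the interaction, the null minus wild-type difference on the high-fat diet less that on the low-fat diet. All 10 values were below 0, with -2.36 for Trp63 (SE 0.73), -2.28 for Epcam (SE 0.73), -1.96 for Cdh1 (SE 0.67), -1.91 for Krt18, -1.73 for Krt8, -1.57 for Krt5, -1.51 for Krt14, -1.31 for Krt19, -1.08 for Krt7 and -0.33 for Krt17. None passed the test (limma, adjusted p 0.9998 for all), as for all genes (0% called, 182 higher and 519 lower at an unadjusted p under 0.05). At an unadjusted p under 0.05, 5 of the 10 were lower (Trp63, Epcam, Cdh1, Krt18 and Krt8), against 3.07% of all genes. The median was -1.65, against -0.13 over all genes. Trp63 and Epcam, 2 of 10, had null libraries all above wild type on the low-fat diet and all below it on the high-fat diet, against 1.43% of all genes. Without Null_HFD 3 and WT_HFD 2, Trp63 stood at -1.78, Epcam at -1.70 and Krt8 at -1.19, and Krt17 turned to 0.91. These comparisons share groups, so their values for a gene are not independent of each other.

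**Figure D2:**
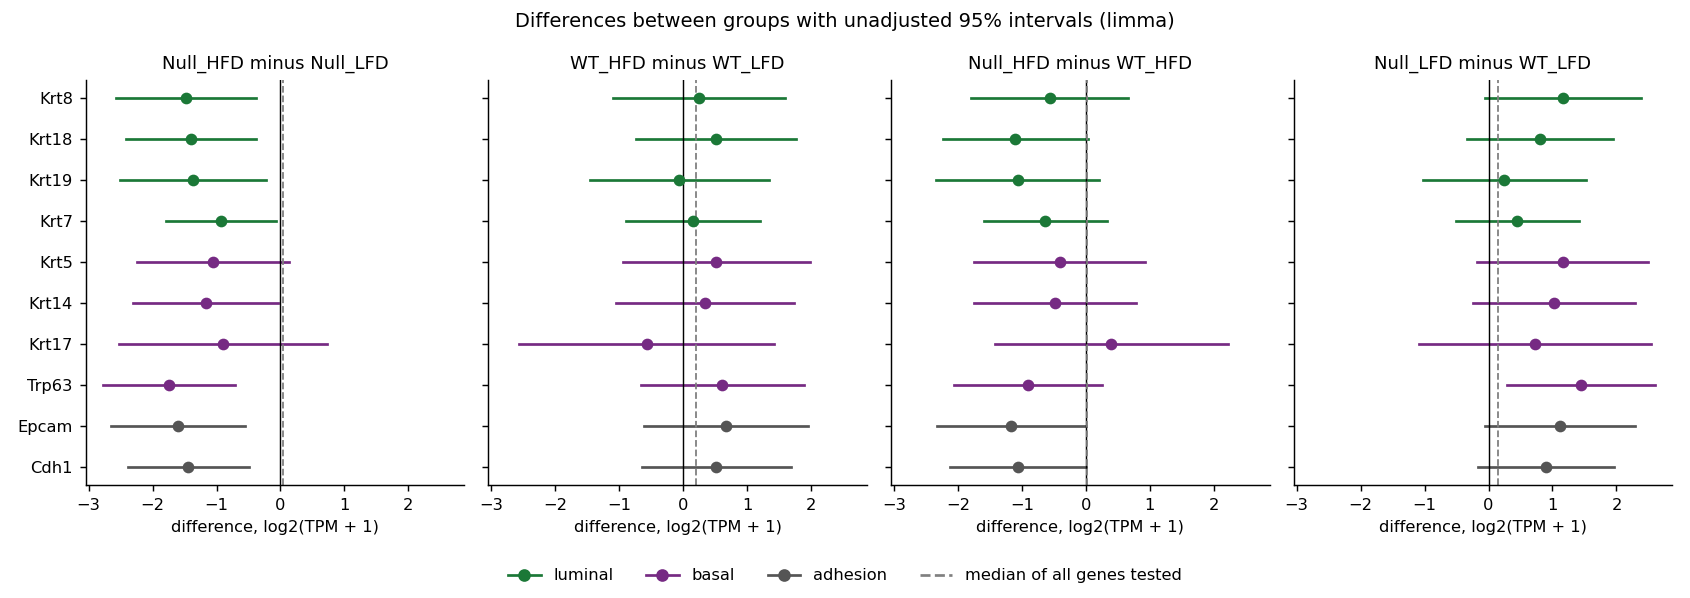
Log2(TPM + 1) differences of the 10 genes in the 4 comparisons between 2 groups, each point a limma estimate with its unadjusted 95% interval, colours for the roles and a dashed line at the median of all genes tested. In null mice on the high-fat diet all 10 points lie below 0, in wild-type mice 8 of 10 lie above 0, and none of the 10 passed the adjusted test in any comparison.

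Luminal and basal genes were compared through the mean log2(TPM + 1) of the 4 genes of each role. Luminal minus basal was 2.35, 2.20 and 2.58 in Null_HFD and 3.11 and 2.63 in WT_HFD, and 2.32, 2.88 and 2.17 in Null_LFD and 2.78 and 2.98 in WT_LFD. The mean of the luminal genes exceeded that of the basal genes in all 10 libraries. Different genes are compared, so the balance does not measure the RNA of either layer. In this balance the genotypes did not overlap on the high-fat diet but overlapped on the low-fat diet. The group means were 2.38 ± 0.19 (SD, n = 3) in Null_HFD, 2.87 ± 0.34 (n = 2) in WT_HFD, 2.46 ± 0.38 (n = 3) in Null_LFD and 2.88 ± 0.14 (n = 2) in WT_LFD. The null minus wild-type difference of this balance was -0.49 on the high-fat diet and -0.42 on the low-fat diet, against a pooled SD within groups of 0.29, and no p is given for a score over chosen genes. High-fat minus low-fat was -0.08 in null and -0.01 in wild-type mice, within that spread, and the interaction was -0.07. Without Null_HFD 3 and WT_HFD 2 the genotype difference on the high-fat diet was -0.84 and the interaction -0.41. With 1 library left out at a time, the genotype difference ranged over -0.73 to -0.25 on the high-fat diet and -0.64 to -0.28 on the low-fat diet. The values nearest 0 lay within the pooled SD.

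The same comparison can be read from the differences of single genes. In null mice the diet difference had a median of -1.38 over the luminal genes and -1.11 over the basal genes, and -1.52 over Epcam and Cdh1. In the interaction the medians were -1.52 over the luminal and -1.54 over the basal genes. Between genotypes they parted more, with -0.85 over luminal and -0.45 over basal genes on the high-fat diet, and 0.63 over luminal and 1.09 over basal genes on the low-fat diet. The TPM ratio of Krt8 to Krt5 ranged over 3.49 in Null_HFD 2 to 9.12 in Null_LFD 2. Within the basal genes, Krt5 was 4.78 and 3.62 times Trp63 in Null_HFD 2 and Null_HFD 3 but 1.11 times in Null_HFD 1, and at most 2.32 times in the other groups, so the 3 Null_HFD libraries differed in their basal profile. Of the 45 log2 ratios between 2 of the 10 genes, 4 held all null libraries on one side of all wild-type libraries, and 0 held the diets apart. Of the ratios of a tested gene to 1 of the 10, 0.133% and 0.934% did so. The 10 genes varied together, so their ratios lose variation that ratios to other genes keep, and these shares are not like for like.

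**Figure D3:**
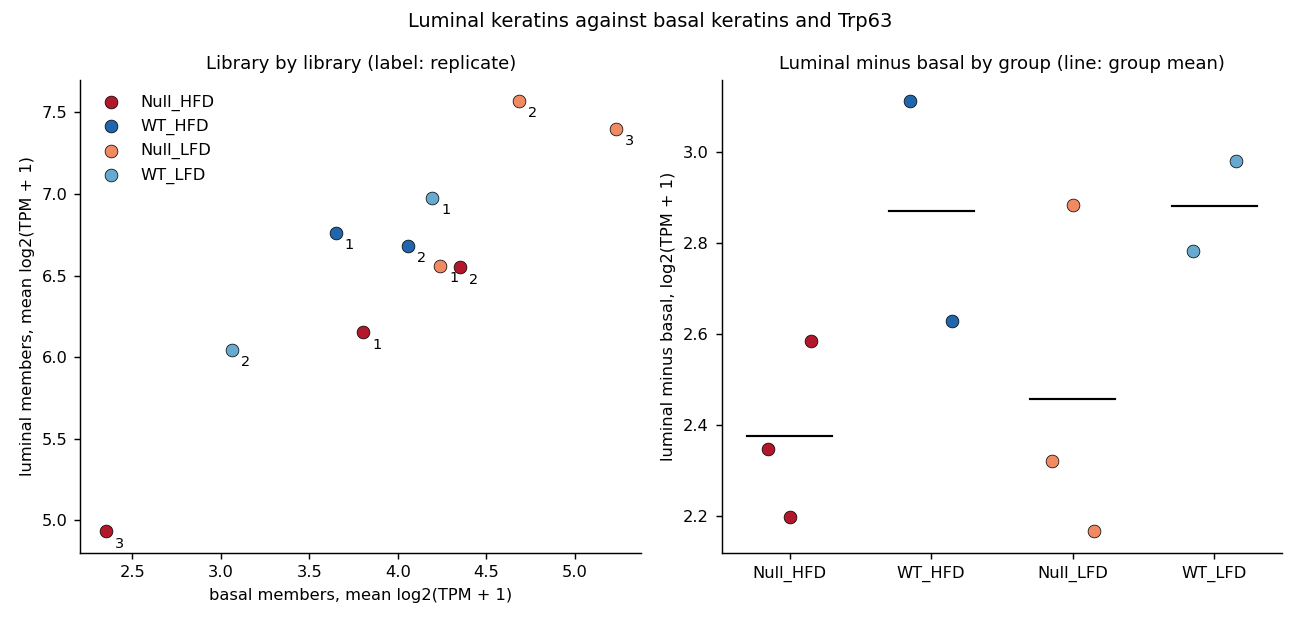
Mean log2(TPM + 1) of the luminal genes against that of the basal genes by library, and luminal minus basal by group. Libraries high in one are high in the other, and the balance averages 2.38 in Null_HFD and 2.87 in WT_HFD, and 2.46 in Null_LFD and 2.88 in WT_LFD.

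Set against the adhesion gene Epcam, whose level in each layer whole-pad RNA does not show, most of the variation between libraries was shared for most of the genes. The SD of Krt8 over the 10 libraries was 0.86 on the log2 scale and 0.27 once Epcam was subtracted, that of Krt18 0.80 and 0.24, and that of Cdh1 0.79 and 0.18. The basal genes Krt14 (0.79 and 0.29) and Trp63 (0.92 and 0.31) did likewise, with Krt19 (0.85 and 0.37), Krt7 (0.58 and 0.39) and Krt5 (0.80 and 0.41) keeping more. Krt17 kept most, 1.00 before and 0.76 after. Relative to Epcam and centred over the libraries, Krt17 stood at 1.11 in Null_HFD 2 and -1.43 in WT_HFD 1, and Krt5 at 0.90 in Null_HFD 2.

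**Figure D4:**
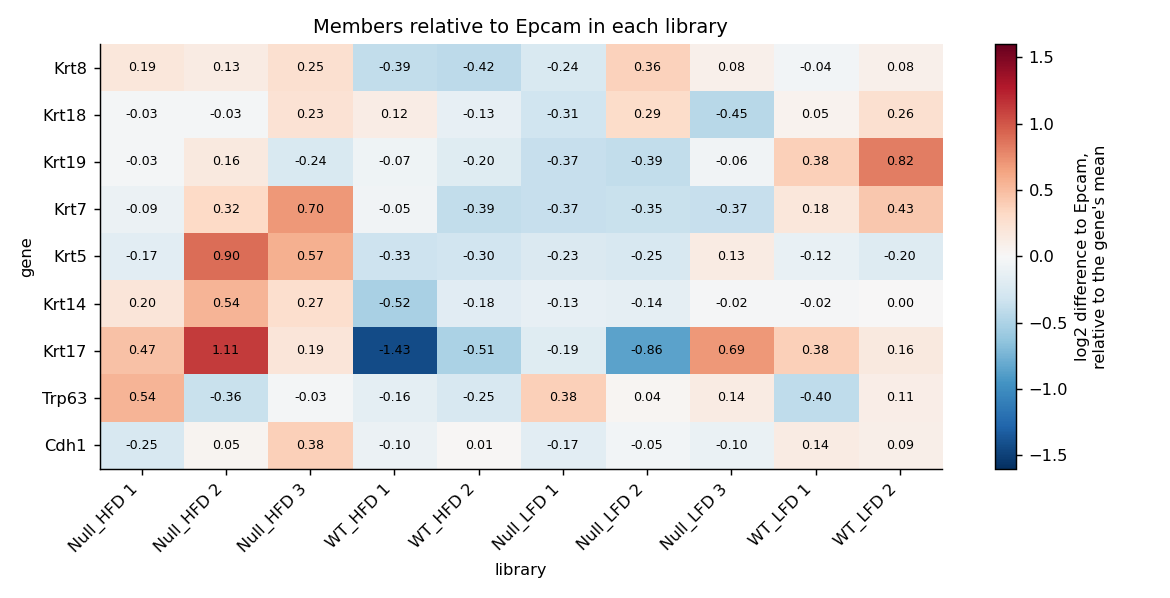
Log2 level of 9 genes relative to Epcam in each library, centred over the 10 libraries. Cdh1 spans -0.25 in Null_HFD 1 to 0.38 in Null_HFD 3, while Krt17 spans -1.43 in WT_HFD 1 to 1.11 in Null_HFD 2.

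Across the 10 libraries the genes correlated in pairs, with Pearson's r of 0.55 to 0.984 (median 0.897) and Spearman's rho of 0.479 to 1.00 (median 0.842) over 45 pairs of log2(TPM + 1) values. By two-sided permutation tests with 100000 resamples, 44 pairs by r and 37 by rho had a Benjamini-Hochberg adjusted p of at most 0.05 over the 45. The share over pairs of all genes was not computed, so these counts are not shown to be particular to the 10 genes. The lowest r, of Krt17 with Krt18, stood at rank 1214 among 11882 genes ordered by r to Krt18. Epcam and Cdh1 were closest (r 0.984, rho 0.939, permutation p 4e-05 for r, adjusted 0.0002). The filament pair Krt5 and Krt14 reached r 0.957 and rho 1 (permutation p 1e-05 for r, the smallest these resamples can give, adjusted 0.00015), and Krt8 and Krt18 r 0.942 and rho 0.867 (permutation p 6e-05 for r, adjusted 0.000225). The luminal Krt8 followed the basal Krt14 as closely, at r 0.96. Pairs within the luminal genes lay at r 0.866 to 0.943, pairs within the basal genes at 0.643 to 0.957 and luminal with basal pairs at 0.55 to 0.96.

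Leaving out the 2 libraries farthest from the median of the first gene of a pair, r ranged over 0.0474 to 0.974 (median 0.793). The 9 pairs with Krt17 then lay at 0.0474 to 0.788, so the lowest of these rest on the extreme libraries, while the luminal pairs stayed at 0.793 to 0.906. Without WT_HFD 2 and Null_HFD 3 the range was 0.24 to 0.98 (median 0.848). For deviations from the group means it was 0.617 to 0.981 (median 0.901), so the pairs also varied together within groups. Points share the libraries' scaling and content of epithelium.

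**Figure D5:**
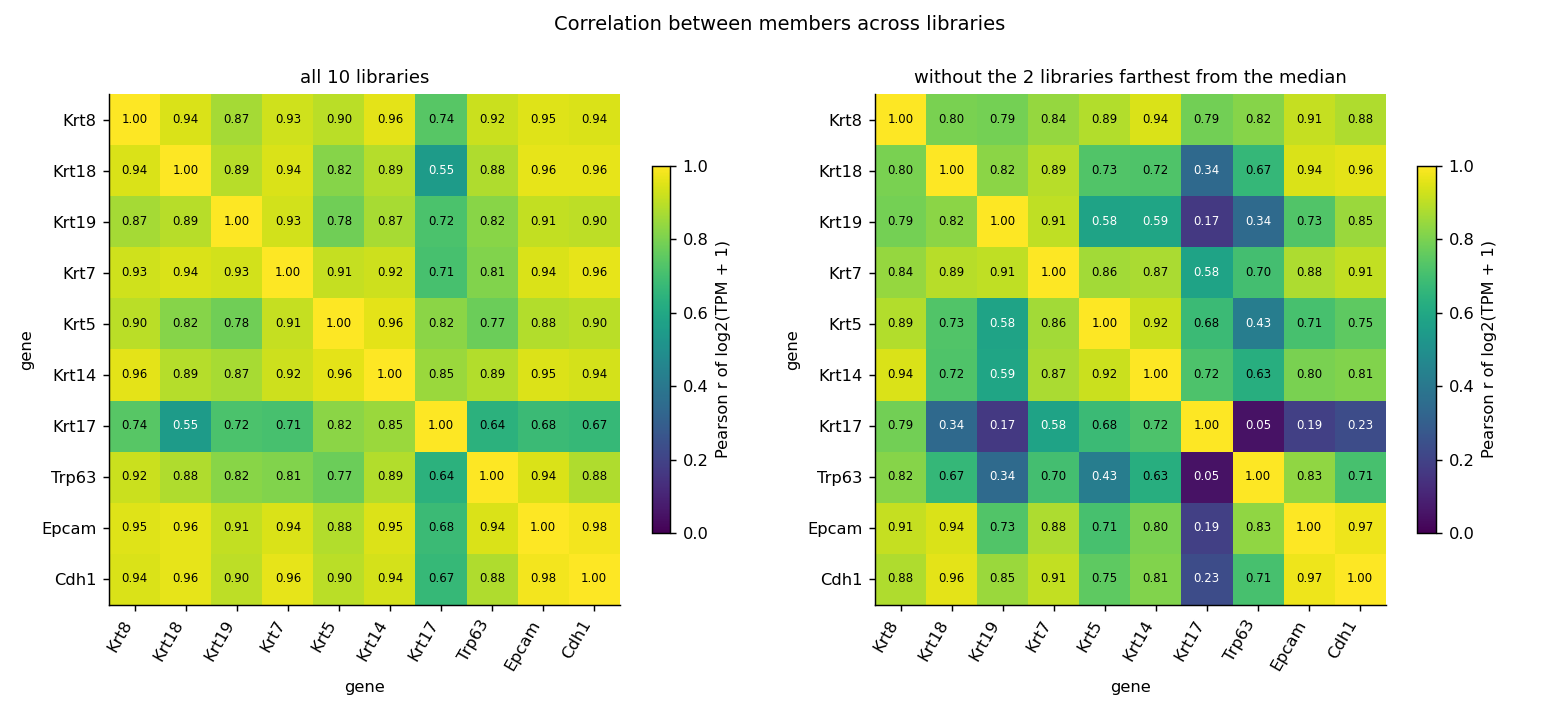
Pearson r of log2(TPM + 1) between the genes over all 10 libraries (left) and without the 2 libraries farthest from the median of the first gene of each pair (right). The left panel is above 0.77 for all pairs without Krt17, and in the right panel the lowest value is 0.05 for Krt17 with Trp63.

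The genes whose levels were most like those of 4 keratins were sought among the 11882 genes averaging 5 TPM or more, by Pearson's r over the 10 libraries, as a description and with the 10 epithelial genes left out. For Krt8 these included Bspry (r 0.973), the actin-severing factor gene Dstn (0.970), the atypical cadherin gene Fat1 (0.965) and the laminin gene Lama1 (0.957). For Krt18 they were Cdcp1 (0.970), Rasef (0.968), the tight junction gene Ocln (0.959), the serine protease gene Tmprss13 (0.957) and Grhl2 (0.952), which encodes an epithelial transcription factor. For Krt5 they were Serinc2 (0.979), the laminin receptor gene Itga3 (0.977), Irx3 (0.963), Tirap (0.962) and Ptk7 (0.960), and for Krt14 Nhsl1 (0.974), Tom1l1 (0.972), Lama1 (0.970), Serinc2 (0.969) and Fat1 (0.964). Had the 10 been ranked with them, Epcam (0.963) and Cdh1 (0.962) would have stood at ranks 3 and 4 for Krt18, and Krt14 (0.96) at rank 4 for Krt8. Lama1 and Fat1 were named for both the luminal Krt8 and the basal Krt14. Levels were lower than those of the keratins for most, Cdcp1 for example ranging over 3.20 to 23.1 TPM, and r stayed at 0.848 or above for all those named without the 2 libraries farthest from the keratin's median.

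Other epithelial genes were read from lists. Over all genes tested, the share with a difference above 0 was 54.9% for diet in null mice, 67.1% for diet in wild-type mice, 66.9% for genotype on the low-fat diet and 38.2% for the interaction. Of 20 junction genes, 17 were lower in null mice on the high-fat diet than on the low-fat diet (median -0.80, none passing the test, lowest adjusted p 0.708 by limma). The tight junction gene Cldn3 ranged over 4.86 to 24.1 TPM in Null_HFD, 26.0 to 30.9 TPM in WT_HFD, 29.0 to 55.3 TPM in Null_LFD and 9.31 to 20.7 TPM in WT_LFD with no overlap between the genotypes on either diet, null lying below wild type on the high-fat diet and above it on the low-fat diet. Its interaction was -2.63 (SE 0.81, limma adjusted p 0.9998). In wild-type mice 17 of the 20 junction genes were higher on the high-fat diet (median 0.31). Of 12 regulators of epithelial transcription and splicing, 12 were lower in null mice on the high-fat diet (median -0.96) and 11 had an interaction below 0 (median -1.64), none past the test. Ehf, an epithelial ETS factor, ranged over 13.9 to 55.7 TPM in Null_HFD, 52.5 to 87.0 TPM in WT_HFD, 57.1 to 155 TPM in Null_LFD and 26.9 to 40.6 TPM in WT_LFD.

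The basal layer was read from further lists. Of 9 hemidesmosome and basal adhesion genes, 7 were lower in null mice on the high-fat diet (median -0.47) and 9 had an interaction below 0 (median -1.05), Cdh3, which encodes P-cadherin of basal cells, with a diet difference in null mice of -0.87 (SE 0.35, limma adjusted p 0.715). Of 7 contractile genes of myoepithelium, 4 were lower (median -0.14) and 4 had an interaction below 0 (median -0.23). Acta2, encoding smooth muscle actin that blood vessels also make, ranged over 83.8 to 232 TPM in Null_HFD, 97.3 to 172 TPM in WT_HFD, 121 to 238 TPM in Null_LFD and 88.7 to 158 TPM in WT_LFD. Of 10 other keratin genes 4 were tested, and 3 of these were lower (median -0.90). In the interaction 2 of the 4 were below 0 and 2 above (median -0.67). Krt79 was the 1 that was higher (diet difference in null mice 0.67, SE 0.39), with an interaction of 1.39 (SE 0.61, limma adjusted p 0.9998). Krt23 had the smallest p of the 4 for diet in null mice, with 0.574 to 2.94 TPM in Null_HFD and 3.87 to 15.9 TPM in Null_LFD, against 1.37 to 1.85 TPM in WT_HFD and 1.36 to 1.37 TPM in WT_LFD (diet difference in null mice -1.76, SE 0.49, limma adjusted p 0.699).

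No gene of the luminal lists passed the test. All 8 genes of the secretory luminal list were lower in null mice on the high-fat diet (median -1.73) and all 8 had an interaction below 0 (median -3.81). Elf5, the transcription factor gene of secretory luminal cells, ranged over 15.5 to 58.5 TPM in Null_HFD, 72.2 to 82.4 TPM in WT_HFD, 54.1 to 119 TPM in Null_LFD and 17.2 to 29.9 TPM in WT_LFD, with an interaction of -3.06 (SE 0.72, limma adjusted p 0.966). Of 7 hormone-sensing luminal genes, 7 were lower in null mice on the high-fat diet (median -0.71), while on the low-fat diet 5 of 7 were lower in null than in wild-type pads (median -0.11), where all 4 luminal keratins were higher. The difference between these lists and the keratins was not tested.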

How the data were processed

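RNA of 10 fat pads was analysed from 1 deposited table with a value per gene symbol and library. The authors deposited log2(TPM + 1), a scale read from the numbers: none is below 0, and after back-transformation each library adds up to 946103 to 954463 TPM. The submitters' processing notes name kallisto, limma and the build GRCm38. Versions, and what each tool did, are not given in the sources. TPM keeps no read numbers, so depth is unknown. The 1 row without a symbol held 0.00544% to 0.0108% of TPM and was left out.

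Groups came from the labelled genotype and diet, and the series calls the libraries biological replicates. The filter kept 16932 genes that reached 1 TPM in 2 or more libraries. A linear model of the deposited values, with 4 group means and 6 residual degrees of freedom, was run in limma 3.58.1 under R 4.3.3, letting variances follow mean level. The comparisons were genotype within each diet and averaged, diet within each genotype and averaged, and the interaction. Tests were two-sided, and a gene was called at a Benjamini-Hochberg adjusted p of at most 0.05 over all genes. Differences on the log2(TPM + 1) scale understate changes of low genes. Permutations, promoter motifs, 31-base words and figures were computed with Python 3.11.15, pandas 2.3.3, numpy 2.4.6, scipy 1.17.1 and matplotlib 3.10.9. The fit was tested on simulated data. Alternatives were a pseudocount of 0.1, other filters, median-of-ratios scaling, no variance trend, library weights, only the groups compared, a replicate block and leaving libraries out.

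The 10 genes, the other lists and the tests were chosen with earlier results of these data known. Named beside the 10 are, by list, up to 3 genes with the smallest p in a comparison described, and the 5 genes most like Krt8, Krt18, Krt5 and Krt14 each. Fap and the genes used to define absent tissues are named beside these, and some genes that the rule names are not reported here.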

Additional observations from a re-analysis of the deposited data

Results flagged for a closer look

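For Trp63 and Epcam the genotypes lay in opposite order on the 2 diets, with every null library above every wild-type library on the low-fat diet and below every wild-type library on the high-fat diet. The interaction was -2.36 for Trp63 (SE 0.73, 95% interval -4.00 to -0.72) and -2.28 for Epcam (SE 0.73, interval -3.93 to -0.63). By limma the unadjusted p was 0.00986 for Trp63 and 0.0123 for Epcam, and neither passed adjustment over all genes (adjusted p 0.9998). This ordering was found for 242 of the 16932 genes tested, or 1.43%. The Null_HFD 1 library, at 10.7 TPM of Trp63, was close to the WT_HFD libraries at 10.85 and 10.98 TPM.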

How the results depend on the processing

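None of the 10 genes reached an adjusted p of at most 0.05 in any other setting in which they were tested. The direction of a gene's difference held in 190 of 190 values for diet in null mice, 188 of 190 for genotype on the low-fat diet, 184 of 190 for genotype on the high-fat diet, 182 of 190 for diet in wild-type mice and 174 of 180 for the interaction. Leaving out 1 library at a time, the diet difference in wild-type mice ranged over -0.43 to 0.31 for Krt19, -1.27 to 0.14 for Krt17, -0.28 to 0.78 for Krt8, -0.32 to 0.62 for Krt7, -0.12 to 1.15 for Krt5, -0.24 to 0.91 for Krt14 and -0.10 to 1.13 for Cdh1. The genotype difference ranged over -0.13 to 0.62 for Krt19 and -0.017 to 0.92 for Krt7 on the low-fat diet, and over -0.19 to 1.12 for Krt17, -0.97 to 0.046 for Krt5 and -0.91 to 0.079 for Krt14 on the high-fat diet, where Null_HFD 3 turned Krt5 and Krt14. The interaction of Krt17 ranged over -1.03 to 0.40, and was 0.46 with library weights and 0.91 without WT_HFD 2 and Null_HFD 3. Without those 2 libraries the high-fat genotype difference was 0.12 for Krt5 and 0.30 for Krt14, and with median-of-ratios scaling the wild-type diet difference of Krt7 was -0.053. A lone wild-type library was assumed to vary like the other groups.

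Genes called over all genes were 0 for genotype on the low-fat diet, 2 for genotype on the high-fat diet, 0 for diet in wild-type mice, 1 for diet in null mice, and 0 for the interaction and both averages. In that order they were 5, 1, 0, 0 with 0 for the interaction and 3 for averaged genotype at a pseudocount of 0.1. Without a filter they were 2, 18, 5 and 0, with 3 for the interaction, 15 for averaged genotype and 3 for averaged diet. Without the variance trend they were 1 for genotype on the low-fat diet, 2 for diet in wild-type mice, 0 for diet in null mice and 5 for averaged genotype, and with library weights 2 for genotype on the low-fat diet, 2 for diet in null mice and 2 for averaged genotype. With only the groups compared they were 1, 1 and, for diet in null mice, 2, and without WT_HFD 2 and Null_HFD 3 they were 0 for genotype on the high-fat diet and 2 for diet in null mice. Leaving out 1 library gave 0 to 1 for genotype on the low-fat diet, 0 to 3 on the high-fat diet and 0 to 2 for each of the others. Luminal minus basal on the high-fat diet differed between genotypes by -0.84 without the 2 libraries, and its interaction was -0.41 without them and -0.37 with keratins alone. With 1 library left out at a time, that genotype difference ranged over -0.73 to -0.25. The cause of these shifts was not tested.

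With the replicate number as a block, 3 genes were called for diet in null mice. The deviations of same-numbered libraries from their group means correlated at -0.346 to 0.412, with 2 of 13 pairs over 0.1. Those of different numbers correlated at -0.502 to 0.502, with 2 of 24 pairs over 0.1. In a group of 2 libraries the deviations mirror each other, so values with wild-type libraries recur with the opposite sign. The check therefore cannot decide whether the numbers pair the samples. Depth is unknown, and groups hold 2 or 3 libraries.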

Other observations

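Ratios between the 10 genes separated the genotypes over both diets in 4 of 45 pairs, and the diets in 0 of 45. Of all log2 ratios of a tested gene to 1 of the 10, 0.133% and 0.934% did so. Those shares are not like for like, since the 10 genes varied together, and some of the 4 pairs share a gene. The pairs were picked after their values were seen and carry no test. Krt18 over Krt8 in TPM was 1.46, 1.52 and 1.68 in Null_HFD and 2.42 and 2.08 in WT_HFD, and 1.61, 1.61 and 1.18 in Null_LFD and 1.81 and 1.92 in WT_LFD. The 6 null libraries all lay below the 4 wild-type libraries in this ratio, although the group means of each gene ordered the genotypes differently on the 2 diets. The log2 ratio of Krt19 to Krt8 was -0.20 to 0.58 in null and 0.77 to 1.29 in wild-type libraries. That of Krt14 to Krt19 was -2.62 to -2.14 in null and -3.47 to -2.64 in wild-type libraries, and that of Cdh1 to Krt5 -0.41 to 0.64 in null and 0.68 to 0.76 in wild-type libraries. Of the Krt8 transcript's 31-base words, 32.3% are shared with other genes, chiefly the pseudogene Krt8-ps, and the part of such sharing in these ratios was not tested.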
